A study of Mus musculus with 40 samples.

Results

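The colony-stimulating factor genes are represented here by 7 genes, the ligands Csf1 and Il34 and the receptor genes Csf1r, Csf2ra, Csf2rb, Csf2rb2 and Csf3r. They were chosen by name, as 7 of the 54513 rows of each of 3 expression tables. No measured value served as a criterion, but earlier results of these data were known when they were chosen. Each row holds the expression of a gene in bulk RNA from CD11b+ cells, the microglia, monocytes, macrophages and granulocytes that carry this integrin, which were sorted from mouse brain hemispheres by flow cytometry. Values are in RPKM, read counts scaled by gene length and library size, so that levels of different genes can be set beside each other per length.

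The study asked how 7aaRGD, a peptide that blocks integrins, changes the myeloid cells of experimental gliomas, alone and with an antibody against PD-1, an inhibitory receptor of T cells. Its control peptide 7aaRAE carries RAE (arginine-alanine-glutamic acid) in place of the RGD motif (arginine-glycine-aspartic acid). In the first experiment, male C57BL/6 mice of 10 to 12 weeks carried tumors of the mouse glioma line GL261, labelled with tdTomato and luciferase, and received water (vehicle), 7aaRGD or 7aaRAE through osmotic pumps into the tumor. Peptides were loaded at 2 mg/ml, and cells were taken at 21 days post-implantation (DPI) beside those of naïve mice without a tumor, with 3 samples per group and 2 animals pooled per sample. In the second experiment, GL261-bearing mice were examined one animal per sample at 28 DPI after vehicle (n = 4), 7aaRGD (n = 4), anti-PD-1 (n = 3) or 7aaRGD with anti-PD-1, the combination (n = 3). The antibody was injected 4 times between day 8 and day 14, at 10 mg/kg, with control IgG in the other arms. For this experiment the sample labels name nude mice, whereas the study describes the antibody treatment of GL261 tumors in immunocompetent hosts, and the labels and the study thus differ on the host. In the third experiment, athymic Nude-Foxn1nu mice, which lack mature T cells but keep myeloid and NK cells, carried the human glioma line U87-MG with RFP and received vehicle, 7aaRGD or 7aaRAE for 21 days, with 3 samples of 2 pooled animals per group. Of 40 labelled samples, 35 were analysed, and naïve nude mice, one anti-PD-1 sample and one combination sample were not analysed here.

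CSF-1 and IL-34 are the ligands of the tyrosine kinase receptor encoded by Csf1r, on which microglia and most tissue macrophages depend for survival. GM-CSF binds the α chain encoded by Csf2ra, which signals together with the common β chain encoded by Csf2rb. Mice carry a second β chain gene, Csf2rb2, whose product serves IL-3. G-CSF acts through the receptor encoded by Csf3r, which is best known from the production and release of neutrophils. Because the cells were sorted, ligand values are those of CD11b+ cells and not of the tumor cells or the rest of the tissue.

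Csf2rb and Csf2rb2 are shown by sequence first, since their similarity bears on how far their values can be told apart. Csf2rb lies on chromosome 15 of mm10 from 78325752 to 78353847 on the plus strand, and Csf2rb2 from 78282507 to 78305721 on the minus strand, with 20030 bases between their starts. Their coding sequences, 2691 and 2637 bases long in GRCm38 transcripts, were 95.2% identical outside gaps, with 126 mismatches. Of the 50-base windows along the transcripts, 892 of 4851 (18.4%) from Csf2rb occurred unchanged in Csf2rb2, and these made up 19% of the windows of Csf2rb2. The least similar stretch of 100 coding bases has 83 identical bases, and capitals mark the 17 that differ, at coding bases 314 to 413 of Csf2rb and 317 to 416 of Csf2rb2.
Csf2rb: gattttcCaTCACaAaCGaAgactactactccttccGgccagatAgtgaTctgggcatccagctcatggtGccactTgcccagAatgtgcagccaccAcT
Csf2rb2: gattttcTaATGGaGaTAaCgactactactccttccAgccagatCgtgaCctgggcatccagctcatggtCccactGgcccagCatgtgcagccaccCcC
A stretch of 100 bases without any difference spans coding bases 662 to 761 of Csf2rb and 665 to 764 of Csf2rb2.
Csf2rb and Csf2rb2: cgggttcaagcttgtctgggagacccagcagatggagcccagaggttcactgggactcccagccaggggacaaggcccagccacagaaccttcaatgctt
Only reads with a mapping quality of at least 10 were counted. Whether reads of such shared stretches were left out by this limit or assigned to either gene is not given in the sources used here. Their separate values are therefore uncertain in the shared part.

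Promoter sequences were found for 4 of the 7 genes in RefSeq (GRCm38.p6), and those of Csf2ra and Csf2rb2 are printed because they held the most matches to the motif searched, 2 each. Capitals mark GAGGAA or its reverse complement TTCCTC, the core letters of sites for PU.1, the myeloid transcription factor encoded by Spi1. The 250 bases before the RefSeq start of Csf2ra are at chr19:61228419-61228668 on the minus strand, with matches 14 and 8 bases before that start. By the gene positions given below, Csf2ra starts at 61228429. The match at 14 spans that position, and the match at 8 lies inside the gene.
Csf2ra: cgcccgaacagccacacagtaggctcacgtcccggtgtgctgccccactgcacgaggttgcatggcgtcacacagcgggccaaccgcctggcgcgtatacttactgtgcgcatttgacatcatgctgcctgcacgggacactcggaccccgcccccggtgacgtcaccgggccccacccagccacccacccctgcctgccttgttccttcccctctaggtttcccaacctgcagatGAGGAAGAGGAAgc
The same stretch of Csf2rb2 is at chr15:78305722-78305971 on the minus strand, with a match 167 bases before the start and another 29 bases after it, beyond the printed part.
Csf2rb2: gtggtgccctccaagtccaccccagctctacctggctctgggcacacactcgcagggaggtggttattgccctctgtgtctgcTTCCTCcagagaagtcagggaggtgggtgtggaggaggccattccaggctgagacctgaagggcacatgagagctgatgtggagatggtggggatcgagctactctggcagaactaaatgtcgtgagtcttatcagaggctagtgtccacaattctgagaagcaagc
The promoter of Csf3r held 1 match, 86 bases before the RefSeq start, and that of Csf1 held 0. By the gene positions given below, Csf3r starts at 126024550. The match, within 126024561 to 126024590, thus lies inside the gene as annotated there. Among all 32851 promoters of 300 bases, 28.3% held at least 1 match on either strand and 4.82% held 2 or more, and a match is only a description of the letters.

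Csf1r was by far the most abundant of the 7 genes in each of the 35 samples, and Il34 was near 0 in all of them. In naïve brains the mean level of Csf1r was 193 ± 11.4 times that of Csf2ra (SD, n = 3), and in GL261 tumors with vehicle at 21 DPI it was 7.21 ± 0.573 times (n = 3). Each sample had 9205 to 9685 protein-coding genes at 1 RPKM or more, and the 10 most abundant genes took 16.42 to 23.96% of the summed RPKM. The gate markers Itgam, Ptprc, Cd68 and Aif1 summed to group means of 804 to 1044 RPKM in every group, and the group means were at most 1.16 RPKM for the summed markers of neurons, 8.88 RPKM for astrocytes and 21.9 RPKM for endothelium, and 14.4 to 37.8 RPKM for oligodendrocytes. Read depth is unknown, because the files hold no counts.

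**Figure D1:**
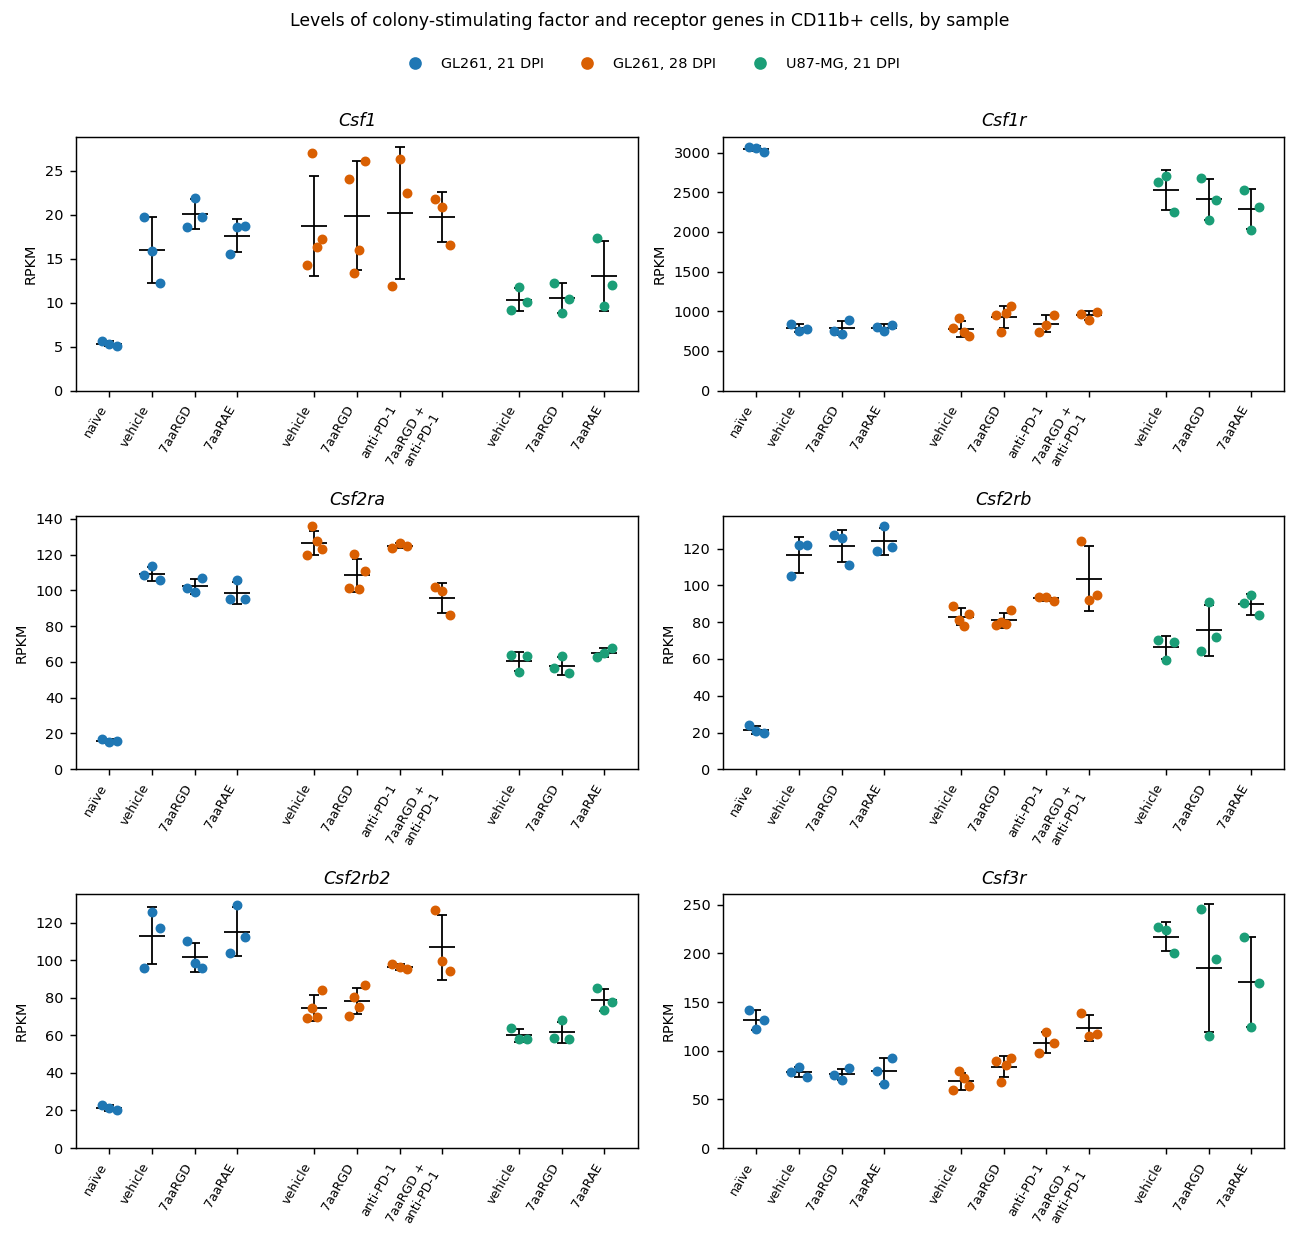
Level in RPKM of the 6 genes other than Il34 in every sample, by group, with 1 point per sample, colors for the 3 tables, and bars for the group mean and SD. Csf1r sits at 3012 RPKM or more in naïve mice and between 682 and 1064 RPKM in every GL261 tumor sample, and at 28 DPI Csf3r is at 98.0 RPKM or more with the antibody and at 92.7 RPKM or less without it.

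The comparison of tumor-bearing with naïve hemispheres asked how the CD11b+ cells of a GL261 tumor differ from those of the brain without a tumor. All 6 of the genes that passed the filter of a mean of 1 RPKM differed, with Csf1, Csf2ra, Csf2rb and Csf2rb2 higher and Csf1r and Csf3r lower with the tumor. This count has to be read against a background in which 82.9% of 9597 genes passed the same threshold (34.6% higher and 48.3% lower) and the samples of both groups did not overlap for 85.5%. Of the called genes 41.8% were higher, against 48.7% with TMM factors and 50.3% with median-of-ratios factors. All tests of this kind used limma on log2(RPKM + 1) with Benjamini-Hochberg adjustment over all genes tested and a threshold of 0.05, and every log2 fold change below is on that scale. In bulk RNA, fewer cells of one type and less RNA per cell cannot be told apart.

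Csf1, the ligand of the CSF-1 receptor, is on chromosome 3 from 107741048 to 107760469 on the minus strand. It was at 5.61, 5.34 and 5.08 RPKM in the naïve samples and at 19.7, 15.9 and 12.3 RPKM in the vehicle samples. All vehicle samples lay above all naïve samples, and the log2 fold change was 1.40 (standard error 0.144, limma adjusted p = 3.32e-05). Il34, the other ligand of this receptor, on chromosome 8 from 110741829 to 110805924, was at 0.0135, 0.0031 and 0.0298 RPKM in naïve mice and 0.0591, 0.0289 and 0.0835 RPKM with vehicle. It stayed under the filter in every table, and without the filter its log2 fold change was 0.06 with a limma adjusted p of 0.0644.

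Csf1r, on chromosome 18 from 61100598 to 61132149 on the plus strand, stood at 3067, 3060 and 3012 RPKM in the naïve samples. With vehicle it stood at 839, 749 and 770.01 RPKM. The naïve mean was 3.87 times the vehicle mean, and the log2 difference was -1.95 (standard error 0.0693, limma adjusted p = 8.67e-08). The sum of 9 microglia markers, of which Tmem119 was the highest, moved with it. It was 9159 to 9523 RPKM in naïve mice and 564 to 883 RPKM with vehicle, and the naïve mean was 12.1 times the vehicle mean. None of these markers was at 0, and the part of these cells in the change of Csf1r was not tested.

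Csf2ra, the GM-CSF receptor α chain, on chromosome 19 from 61223957 to 61228429, had values of 17.0, 15.0 and 15.6 RPKM in naïve mice and 108, 114 and 105.7 RPKM with vehicle. Csf2rb, the common β chain, had 23.97, 20.8 and 19.8 RPKM in naïve mice and 105, 122 and 122 RPKM with vehicle. Csf2rb2, the second β chain, had 23.0, 21.1 and 20.1 RPKM in naïve mice and 96.0, 126 and 117 RPKM with vehicle. For each of these 3 receptor chains every vehicle sample was far above every naïve sample. The log2 fold change was 2.71 for Csf2ra (95% interval 2.57 to 2.85, limma adjusted p = 1.26e-08), 2.38 for Csf2rb (2.18 to 2.59, adjusted p = 1.1e-07) and 2.34 for Csf2rb2 (2.10 to 2.58, adjusted p = 2.34e-07). The absolute change of Csf2ra was larger than that of 94.8% of all genes tested, and those of Csf2rb and Csf2rb2 were larger than 93.1% and 92.8%. Monocyte markers moved in the same direction, with a sum of 26.6 to 34.2 RPKM over 7 genes in naïve mice and 1389 to 2055 RPKM with vehicle. The dendritic cell markers also did, with a mean sum of 15.1 RPKM over 7 genes in naïve mice and 72.1 RPKM with vehicle, Xcr1 being under 0.5 RPKM in every sample of both groups. Endothelial markers had mean sums of 3.06 RPKM over 5 genes in naïve mice and 21.9 RPKM with vehicle. The part of these cells in the change of the receptor chains was not tested. Among tumor samples only, Csf2ra and the monocyte sum had a Pearson r on the log2 scale of 0.516, -0.158 and -0.471. For Csf2rb and this sum, r was -0.259, 0.325 and -0.239. The order is GL261 at 21 DPI (9 samples), GL261 at 28 DPI (14 samples) and U87-MG (9 samples).

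Csf3r, the G-CSF receptor, on chromosome 4 from 126024550 to 126044440 on the plus strand, was at 141, 122 and 131 RPKM in naïve mice and at 77.8, 83.1 and 72.8 RPKM with vehicle. All naïve samples were higher than all vehicle samples, and the log2 difference was -0.75 (standard error 0.075, limma adjusted p = 2.76e-05). Neutrophil markers summed to 290 to 439 RPKM over 10 genes in naïve mice and to 66.3 to 206 RPKM with vehicle, and their part was not tested. The median log2 fold change of all genes was -0.14, against -0.02 after scaling by TMM factors and 0.00 with median-of-ratios factors. Relative to the median of all genes, the log2 difference of Csf3r was -0.60, that of Csf1r was -1.81 and that of Csf2ra was 2.85.

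**Figure D2:**
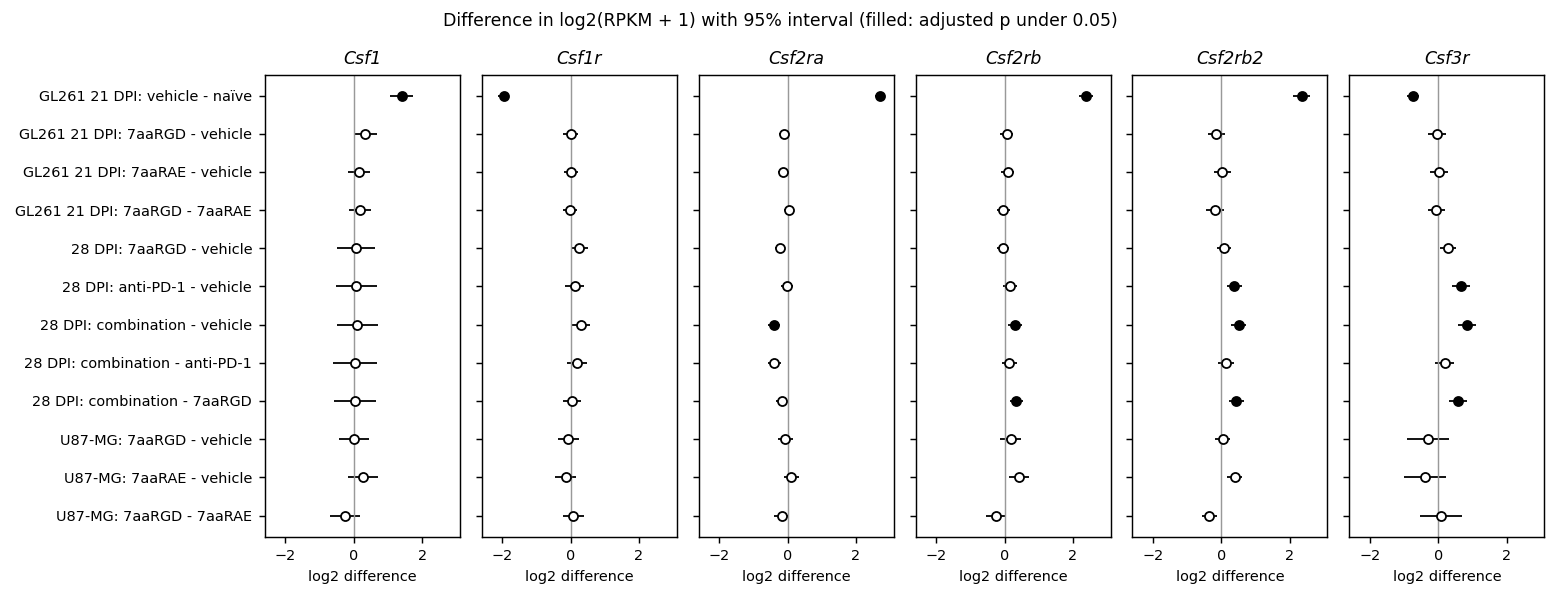
Difference in log2(RPKM + 1) of the 6 tested genes (panels) in each of 12 comparisons (lines), as points with 95% intervals from limma, filled where the adjusted p was under 0.05. In vehicle against naïve mice the values run from -1.95 for Csf1r to 2.71 for Csf2ra, and at 28 DPI the filled points belong to Csf2ra, Csf2rb, Csf2rb2 and Csf3r.

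Both peptides were compared with vehicle in the GL261 tumors at 21 DPI to see whether integrin blockade altered these genes. None of the 6 genes passed the threshold with 7aaRGD, where 0.15% of 9313 genes did (0.14% higher and 0.0107% lower), and 1 of the 6, Csf1, had an unadjusted p under 0.05 in limma, as had 13.6% of all genes. Csf1 was at 18.6, 21.9 and 19.7 RPKM with 7aaRGD and 15.5, 18.7 and 18.7 RPKM with 7aaRAE, beside the 19.7, 15.9 and 12.3 RPKM of the vehicle samples. The groups overlapped, and the log2 difference between 7aaRGD and vehicle was 0.33 (95% interval 0.00 to 0.66, limma adjusted p = 0.362).

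The receptor genes of the 21 DPI tumors lay close together in all treatment groups. Csf1r was at 756, 714 and 888 RPKM with 7aaRGD and at 801, 750.2 and 828.9 RPKM with 7aaRAE, within a log2 interval of -0.21 to 0.20 of vehicle for 7aaRGD. Csf2rb was at 127, 126 and 111 RPKM with 7aaRGD and 119, 132 and 121 RPKM with 7aaRAE, which overlapped the vehicle samples. Csf2rb2 was at 110.1, 98.5 and 95.8 RPKM with 7aaRGD and 104, 129.5 and 112 RPKM with 7aaRAE. No order could be read from these groups. The interval of the log2 difference between 7aaRGD and vehicle ran from -0.13 to 0.25 for Csf2rb and from -0.41 to 0.11 for Csf2rb2. Csf3r was at 75.1, 70.3 and 81.9 RPKM with 7aaRGD and 79.4, 66.2 and 92.7 RPKM with 7aaRAE, with an interval of -0.30 to 0.22 for 7aaRGD.

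With the control peptide 7aaRAE, 0 of the 6 genes and 0% of all genes tested passed the threshold in limma, and 0 of the 6 had an unadjusted p under 0.05, against 6.42% of all genes. Csf2ra was at 101, 98.9 and 107 RPKM with 7aaRGD and at 95.3, 105.6 and 95.1 RPKM with 7aaRAE. Its 7aaRAE samples all lay below the vehicle samples, the nearest pair at 105.63 and 105.67 RPKM, which held for 12.6% of all genes in one direction or the other, with a log2 difference of -0.15 (limma adjusted p = 0.713). In the direct comparison of 7aaRGD with 7aaRAE, which differ in the RGD motif, 0 of the 6 genes and 0% of all genes passed in limma, with 0 of the 6 and 5.56% of all genes at an unadjusted p under 0.05. The 95% intervals of that difference were -0.15 to 0.51 for Csf1, -0.23 to 0.19 for Csf1r and -0.09 to 0.20 for Csf2ra. They were -0.22 to 0.16 for Csf2rb, -0.44 to 0.08 for Csf2rb2 and -0.32 to 0.20 for Csf3r. Differences within these limits remain compatible with the samples, and the limits are no measure of what could be detected. Il34 was at 0.138, 0.18 and 0.128 RPKM with 7aaRGD, all above the vehicle samples, with a limma adjusted p of 0.152 without the filter. These levels are under the added constant and the pseudocount, and among the genes that passed the filter 17.7% did not overlap in this comparison.

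The experiment at 28 DPI compared the peptide, the antibody and their combination with vehicle. Csf3r and Csf2rb2 were higher with anti-PD-1, Csf3r, Csf2rb2 and Csf2rb were higher and Csf2ra was lower with the combination, and with 7aaRGD alone none of the 6 tested genes passed. Csf1 and Csf1r passed in none of these comparisons. Csf1r in the combination was close to the threshold.

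Csf1 varied widely within groups. It was at 14.2, 27.0, 16.4 and 17.3 RPKM with vehicle and at 24.1, 13.3, 16.0 and 26.2 RPKM with 7aaRGD. It was at 11.9, 26.3 and 22.5 RPKM with anti-PD-1 and at 21.8, 20.8 and 16.5 RPKM with the combination. All groups overlapped, and limma adjusted p-values against vehicle were 0.924 for 7aaRGD, 0.876 for anti-PD-1 and 0.79 for the combination. Il34 was at 0.0128 to 0.302 RPKM over the 14 samples, and without the filter its log2 difference between combination and vehicle was -0.20 (limma adjusted p = 0.0243), at levels where the added constant and the pseudocount exceed the values.

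Csf1r was at 786, 913, 733 and 682 RPKM with vehicle and at 950.006, 738, 975 and 1064 RPKM with 7aaRGD. It was at 742, 831 and 956 RPKM with anti-PD-1 and at 969.6, 888 and 986 RPKM with the combination. Each treated group overlapped the vehicle samples, although only the second vehicle sample, at 913 RPKM, reached into the combination. The log2 difference of the combination from vehicle was 0.29 (95% interval 0.02 to 0.57, limma adjusted p = 0.0814), and it passed the threshold without that vehicle sample (0.37, adjusted p = 0.0361), with median-of-ratios factors (0.36, adjusted p = 0.0499) and with only the compared groups in the fit (0.29, adjusted p = 0.044). With 7aaRGD the log2 difference was 0.25 (adjusted p = 0.345). The microglia markers summed to 611 to 910.3 RPKM with vehicle, 723 to 1383 RPKM with 7aaRGD, 805 to 1070 RPKM with anti-PD-1 and 1050 to 1198 RPKM with the combination. Across the 14 samples Csf1r and this sum had a Pearson r of 0.905 on the log2 scale, as a description of libraries in which both were measured together.

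Csf2ra was at 119.9, 136, 127 and 123 RPKM with vehicle and at 124, 127 and 125 RPKM with anti-PD-1. It was at 101, 120.5, 101 and 111 RPKM with 7aaRGD and at 102, 99.4 and 86.3 RPKM with the combination. The combination samples lay below all vehicle samples, while those of 7aaRGD overlapped vehicle through one sample each. With the combination the log2 fold change was -0.40 (standard error 0.0779, limma adjusted p = 0.00121), where 43.2% of 9603 genes passed (17.5% higher and 25.7% lower) and 48.7% did not overlap. The split by direction depended on the scaling, since 40.5% of the called genes were higher here, 50.7% with TMM factors and 52.7% with median-of-ratios factors. With 7aaRGD, where 0.791% of genes passed (0.177% higher and 0.614% lower), the log2 difference was -0.22 (95% interval -0.38 to -0.07, limma adjusted p = 0.176), and 2 of the 6 genes, Csf2ra and Csf3r, had an unadjusted p under 0.05, as had 14.5% of all genes. With anti-PD-1 the log2 difference was -0.02 (95% interval -0.18 to 0.15).

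Adding the peptide to the antibody was tested as the combination against anti-PD-1. None of the 6 genes passed in limma, against 0.0417% of all genes (0.0208% in each direction), and 1 of the 6 had an unadjusted p under 0.05, as had 15% of all genes. That gene was Csf2ra, with a log2 difference of -0.38 (95% interval -0.56 to -0.21, adjusted p = 0.0745), whose combination samples were all below the anti-PD-1 samples, as 21.4% of all genes did not overlap. The test of whether the effect of 7aaRGD differed with and without the antibody called 0 of the 6 genes and 0% of all genes in limma, and 0 of the 6 had an unadjusted p under 0.05, against 8.05% of all genes.

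Csf3r was at 60.003, 79.2, 72.2 and 63.3 RPKM with vehicle and at 89.0, 67.8, 85.6 and 92.7 RPKM with 7aaRGD. With anti-PD-1 it was at 98.0, 119 and 108 RPKM, and with the combination at 139, 115 and 117 RPKM. Every sample given the antibody lay above every sample that was not, and the share of all genes with such a separation was not computed. The log2 fold change against vehicle was 0.65 with anti-PD-1 (95% interval 0.39 to 0.92, limma adjusted p = 0.00253) and 0.84 with the combination (0.58 to 1.11, adjusted p = 0.000148). With anti-PD-1, 10.9% of all genes were higher by the same rule, 23.1% passed in either direction and 32.5% did not overlap. The change of Csf3r exceeded that of 94.9% of genes with anti-PD-1 and 93.7% with the combination. With 7aaRGD alone the log2 difference was 0.28 (adjusted p = 0.271).

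Neutrophil markers gave no matching order at 28 DPI. Their sum was 164 to 384 RPKM with vehicle, 162 to 306 RPKM with anti-PD-1 and 88.4 to 212 RPKM with the combination. Across the 14 samples Csf3r had a Pearson r of 0.0607 with the neutrophil sum and 0.738 with the microglia sum on the log2 scale, as a description. Over the 9 tumor samples of GL261 at 21 DPI, r was 0.402 with the neutrophil sum and 0.148 with the microglia sum. The NK cell markers summed to 1.76 to 8.02 RPKM over 5 genes with vehicle and 16.9 to 60.2 RPKM with the combination. With anti-PD-1 the NK sums were 34.6, 45.8 and 1.49 RPKM, so that the third sample lay below every vehicle sample. The dendritic cell markers had mean sums of 2.72 RPKM with vehicle, 10.6 RPKM with anti-PD-1 and 16.1 RPKM with the combination. Monocyte markers summed to 146 to 321 RPKM with vehicle, 350 to 893 RPKM with anti-PD-1 and 351 to 548 RPKM with the combination, and to 150.2 to 883 RPKM with 7aaRGD. Both antibody groups were thus above the vehicle samples in the monocyte sum, while 7aaRGD overlapped all groups. Endothelial markers had mean sums of 5.51 RPKM with vehicle, 10.8 RPKM with anti-PD-1 and 10.9 RPKM with the combination. Oligodendrocyte markers went the other way, with mean sums of 37.8, 25.2 and 23.0 RPKM in this order. These sums stand beside the changes of Csf3r, Csf2ra, Csf2rb and Csf2rb2 alike, and the part of these cells was not tested.

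**Figure D3:**
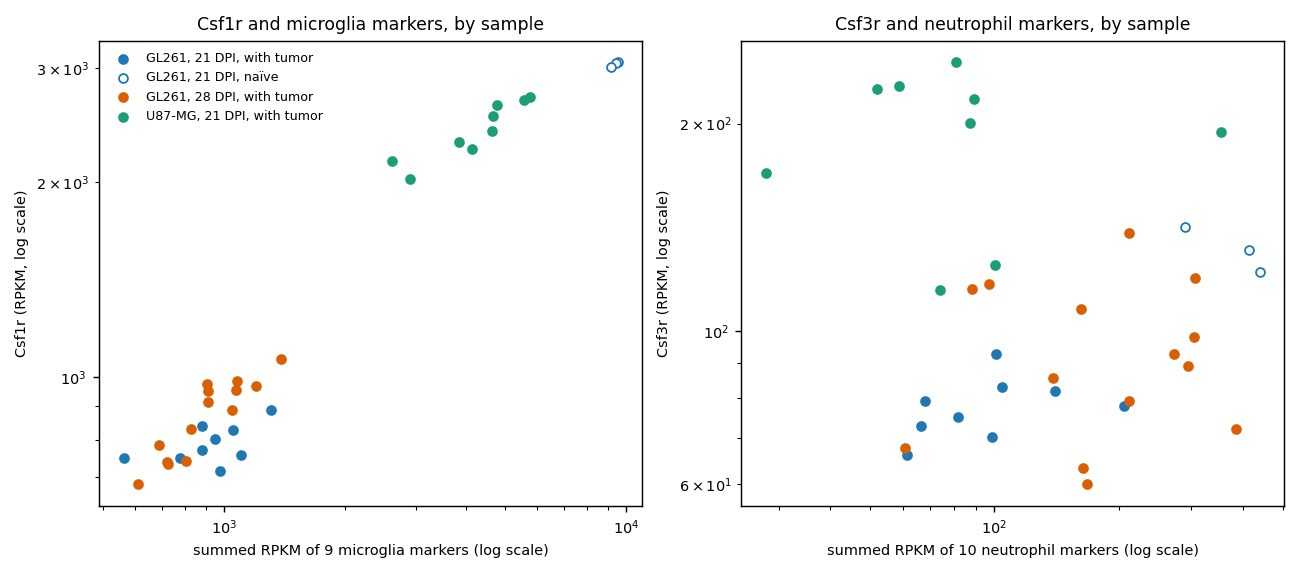
Csf1r against the sum of 9 microglia markers and Csf3r against the sum of 10 neutrophil markers, in RPKM on log axes, with 1 point per sample, colors for tables and open points for naïve mice. In tumor samples Csf1r and the microglia sum had r of 0.513, 0.905 and 0.922 in the tables of GL261 at 21 DPI, GL261 at 28 DPI and U87-MG, and Csf3r and the neutrophil sum had r of 0.402, 0.0607 and -0.0017.

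Of the β chain genes, Csf2rb2 passed with anti-PD-1 and with the combination, and Csf2rb with the combination. Csf2rb2 was at 69.4, 74.6, 69.8 and 84.3 RPKM with vehicle and 70.3, 80.6, 75.3 and 86.6 RPKM with 7aaRGD. It was at 97.9, 96.2 and 95.1 RPKM with anti-PD-1 and at 126, 99.7 and 94.4 RPKM with the combination. Both antibody groups lay above both groups without it. The share of all genes for this separation across the groups was not computed. Against vehicle, 32.5% of all genes did not overlap with anti-PD-1 and 48.7% with the combination. Between the combination and 7aaRGD this share was 40.3%. The log2 fold change was 0.37 with anti-PD-1 (limma adjusted p = 0.0204) and 0.51 with the combination (adjusted p = 0.00159). The call with anti-PD-1 was lost without the first vehicle sample (0.34, adjusted p = 0.0555), without the first anti-PD-1 sample (0.36, adjusted p = 0.0576) and without the second (0.37, adjusted p = 0.061).

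Csf2rb was at 88.6, 81.4, 77.9 and 84.3 RPKM with vehicle and 78.2, 80.0, 79.0 and 86.8 RPKM with 7aaRGD. With anti-PD-1 it was at 93.7, 93.9 and 91.4 RPKM, and with the combination at 124, 92.2 and 94.9 RPKM. The samples given the antibody were all above those without it, a separation for which the share of all genes was not computed. By pairs of groups, 32.5% of all genes did not overlap for anti-PD-1 against vehicle and 48.7% for the combination against vehicle. The log2 fold change was 0.31 with the combination (limma adjusted p = 0.0148), which without its first sample, the highest, was 0.17 (adjusted p = 0.0724). With anti-PD-1 the log2 difference of 0.16 did not pass (95% interval -0.03 to 0.36, adjusted p = 0.21).

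Adding the antibody to the peptide, as the combination against 7aaRGD, gave 3 receptor genes on the higher side. Csf2rb, Csf2rb2 and Csf3r passed with log2 fold changes of 0.34 (limma adjusted p = 0.0104), 0.44 (adjusted p = 0.00533) and 0.56 (adjusted p = 0.00347), and 0 of the 6 passed on the lower side. In this comparison 36.4% of all genes passed, 12.9% on the higher side, and 40.3% did not overlap. Of the called genes 35.4% were higher here, against 51.1% with TMM factors and 52.3% with median-of-ratios factors. Csf2ra did not pass, at a log2 difference of -0.18 (adjusted p = 0.0929). The ratio of Csf2ra to Csf2rb within a sample was 1.53 ± 0.148 (SD, n = 4) with vehicle, 1.34 ± 0.112 (n = 4) with 7aaRGD, 1.34 ± 0.0234 (n = 3) with anti-PD-1 and 0.936 ± 0.131 (n = 3) with the combination. These comparisons share their vehicle and combination samples.

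**Figure D4:**
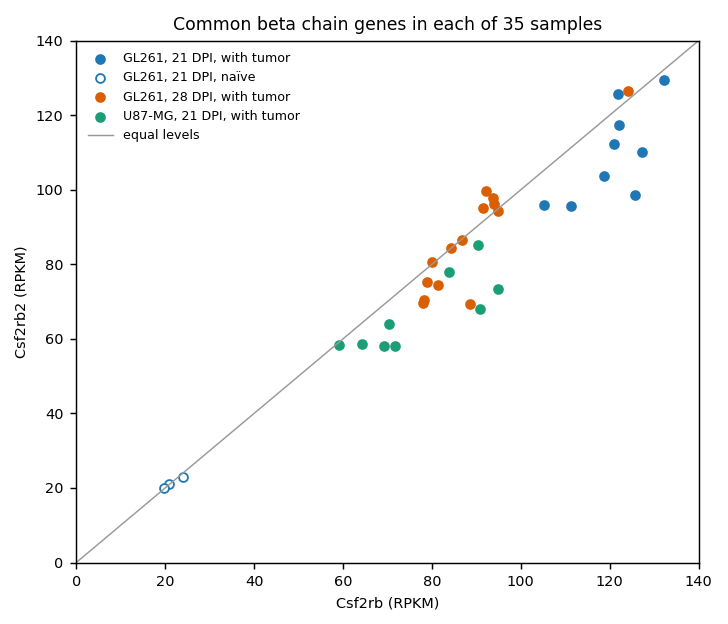
Csf2rb2 against Csf2rb in each of the 35 samples, in RPKM, with colors for tables, open points for naïve mice and the line of equal levels. The points lie near or below the line, with ratios of Csf2rb2 to Csf2rb from 0.747 to 1.08.

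Csf2rb and Csf2rb2 stayed near a ratio of 1 in every sample. The ratio of Csf2rb2 to Csf2rb ranged from 0.747 to 1.08 over the 35 samples, with 0.899 ± 0.0895 (SD, n = 4) for vehicle at 28 DPI and 1.04 ± 0.0106 (n = 3) for anti-PD-1. Each was the gene most like the other among 8945 genes, with a mean Pearson r of 0.904 over the 3 tables (12, 14 and 9 samples), a description of genes whose transcripts share identical stretches such as the one printed above.

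In the U87-MG tumors of nude mice, 0 of the 6 genes passed the threshold in any comparison. For 7aaRGD against vehicle 0% of 9530 genes passed in limma, with 0 of the 6 and 3.79% of all genes at an unadjusted p under 0.05. For 7aaRAE against vehicle 0.0105% passed, with 2 of the 6 and 7.71% of all genes at an unadjusted p under 0.05. The headers of this table repeat the group names, so the samples carry no number and are given in the order of the columns.

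Csf1 was at 9.18, 11.7 and 10.1 RPKM with vehicle, 12.2, 8.85 and 10.4 RPKM with 7aaRGD and 17.4, 9.65 and 12.05 RPKM with 7aaRAE, with overlap of all groups. Il34 was at most 0.0611 RPKM. Csf1r was at 2628, 2707 and 2247 RPKM with vehicle, 2677, 2156 and 2400.1 RPKM with 7aaRGD and 2527, 2022 and 2309.7 RPKM with 7aaRAE. The groups overlapped here as well. The 95% interval of the log2 difference from vehicle was -0.37 to 0.23 for 7aaRGD and -0.45 to 0.15 for 7aaRAE.

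Csf2ra was at 63.9, 54.3 and 63.2 RPKM with vehicle, 56.4, 63.3 and 53.6 RPKM with 7aaRGD and 62.7, 65.1 and 67.7 RPKM with 7aaRAE. Csf3r was at 227, 224 and 200.4 RPKM with vehicle, 246, 115 and 195 RPKM with 7aaRGD and 217, 125 and 169.5 RPKM with 7aaRAE. Both genes overlapped between groups, and the second sample of either peptide group was the lowest of its group for Csf3r. Those samples also had the lowest microglia sums of their groups, at 2618 RPKM for 7aaRGD and 2908 RPKM for 7aaRAE. The log2 difference of Csf3r from vehicle was -0.30 with 7aaRGD and -0.38 with 7aaRAE (95% interval -1.0002 to 0.24), and without these samples, left out after seeing the data, it was 0.01 and -0.17. Across the 9 samples Csf3r had a Pearson r of 0.969 with the microglia sum and -0.0017 with the neutrophil sum on the log2 scale, as a description.

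Csf2rb was at 70.4, 59.2 and 69.3 RPKM with vehicle, 64.2, 90.9 and 71.8 RPKM with 7aaRGD and 90.3, 94.9 and 83.8 RPKM with 7aaRAE. Csf2rb2 was at 64.1, 58.2 and 58.0 RPKM with vehicle, 58.6, 67.9 and 58.1 RPKM with 7aaRGD and 85.2, 73.4 and 77.8 RPKM with 7aaRAE. For both genes all 7aaRAE samples lay above all vehicle samples, as 16.5% of all genes did not overlap. The log2 difference between 7aaRAE and vehicle was 0.43 for Csf2rb (95% interval 0.14 to 0.73, limma adjusted p = 0.476) and 0.38 for Csf2rb2 (0.17 to 0.60, adjusted p = 0.32). Between the peptides, 0 of the 6 genes and 0% of all genes passed in limma, and Csf2rb2, the 1 of the 6 with an unadjusted p under 0.05, was lower with 7aaRGD in every sample, where 3.34% of genes had such a p and 6.38% did not overlap.

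The vehicle groups of the 3 tables can only be set side by side, since the tables were normalized separately and no test was made. Csf1r was at a mean of 786 RPKM in GL261 at 21 DPI, 779 RPKM in GL261 at 28 DPI and 2527 RPKM in U87-MG, and Csf3r at 77.9, 68.7 and 217 RPKM. Csf2ra came to 109, 127 and 60.5 RPKM in this order, and Csf2rb at 116, 83.1 and 66.3 RPKM. Csf1r and Csf3r were thus at the higher level in the U87-MG table, where the microglia sum was also higher, at a mean of 4892 RPKM against 776 and 734 RPKM.

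The other genes of the pathway were followed through 67 genes in lists of further ligands, partner receptors, signalling molecules, negative regulators, regulators of the receptor genes and survival targets. Csf2, Csf3, Il3 and Il5, the ligands of the β chain receptors and of Csf3r, were under the filter, with Csf2 at no more than 0.308 RPKM in any group mean. In tumor-bearing against naïve mice, 29 of the 59 tested genes were higher and 21 lower, or 84.7%, near the 82.9% of all genes. All 4 partner receptors that were tested passed on the higher side, and their median was 2.2 against -0.14 for all genes. One of them, Flt3, is also among the dendritic cell markers. Il3ra, the IL-3 receptor α chain that pairs with the β chains, went from 1.5 ± 0.138 to 24.6 ± 1.79 RPKM (SD, n = 3), with a log2 fold change of 3.36 (limma adjusted p = 1.07e-08).

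Negative regulators were divided, with 7 higher and 6 lower of 13 tested and a median log2 difference of 0.41. Socs1, Cish and Socs3, feedback inhibitors of cytokine signalling, rose by log2 fold changes of 4.32, 3.53 and 3.31. Of 23 signalling genes 8 were higher and 9 lower, with a median of -0.01, among them the kinases Fgr (4.27) and Jak2 (2.40) on the higher side and Pik3cg (-1.62) on the lower. Of 10 survival targets 6 were higher and 3 lower, with a median of 0.94, Pim1 at 4.69 and Bcl2a1d at 4.22. Among 9 regulators of the receptor genes 4 were higher and 3 lower, with a median of -0.05, Cebpb at 3.07 and Maf at -2.31.

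At 28 DPI the combination differed from vehicle in 25 of 59 list genes, 13 higher and 12 lower, which is 42.4% against 43.2% of all genes, and anti-PD-1 in 13, or 22% against 23.1%. By list, the combination had 2 of 2 partner receptors higher, 3 of 14 negative regulators higher and 5 lower, 6 of 23 signalling genes higher and 4 lower, 1 of 10 regulators of the receptor genes higher and 2 lower, and 1 of 10 survival targets in either direction. Il3ra was higher with the combination (log2 fold change 0.54, limma adjusted p = 0.00185) and with anti-PD-1 (0.40, adjusted p = 0.0204). Socs1 was higher in both, at 1.35 and 1.08. Akt1, a kinase downstream of these receptors, was lower at -0.49 with the combination and -0.34 with anti-PD-1, and Cebpa, a regulator of Csf3r, was lower at -0.56 and -0.37. With 7aaRGD alone 0 list genes passed in limma, with 12 of the 59 at an unadjusted p under 0.05, beside 14.5% of all genes. In the U87-MG tumors, where 54 list genes were tested, 0 passed in limma with either peptide. At an unadjusted p under 0.05 there were 4 of 54 for 7aaRGD and 13 of 54 for 7aaRAE, beside 3.79 and 7.71% of all genes. In the GL261 tumors at 21 DPI 0 of 61 passed in limma, with 12 of 61 for 7aaRGD and 6 of 61 for 7aaRAE at such a p, beside 13.6 and 6.42% of all genes.

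**Figure D5:**
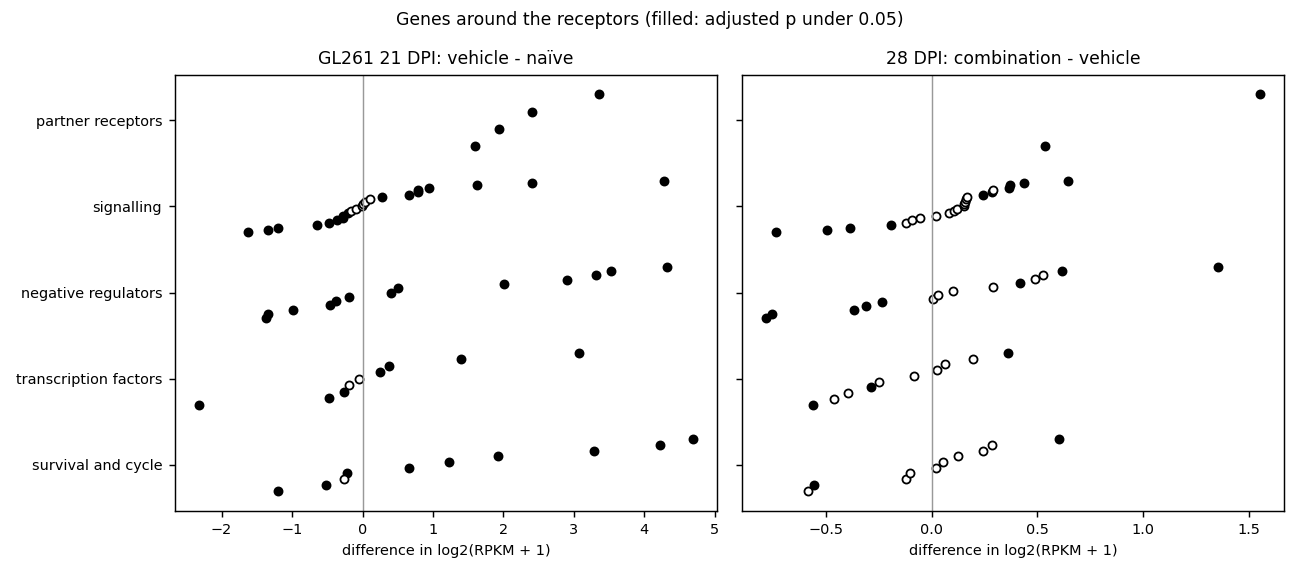
Difference in log2(RPKM + 1) of every tested pathway gene, 1 point per gene, by list, in vehicle against naïve mice and in the combination against vehicle at 28 DPI, filled where the limma adjusted p was under 0.05; the heights within a list only separate the points. The values reach 4.69 for Pim1 on the left and 1.55 for Sdc1, a partner receptor of the list, on the right.

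By likeness of pattern, the mean Pearson r over the 3 tables was highest for Csf1r with Snn (0.957), Clstn1 (0.951) and Plxdc1 (0.945), and for Csf3r with Bin1 (0.965), St6galnac4 (0.963) and Ift172 (0.96). For Csf2ra the genes were Abhd11 (0.867), Gpatch4 (0.861) and Ltv1 (0.854), and for Csf1 they were Lrpap1 (0.772) and Ctsz (0.754). After each other, Csf2rb was most like Lrrc8c (0.87) and Rhbdf2 (0.859), and Csf2rb2 most like Glrx (0.86) and Pgm1 (0.86). Among the 7 genes themselves Csf1r and Csf3r had a mean r of 0.812, and Csf1r and Csf2ra one of -0.705. These are descriptions over 12, 14 and 9 samples in which the naïve samples count toward the first table.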

How the data were processed

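Gene expression was measured by RNA-seq of sorted CD11b+ cells. According to the methods, the authors used Trimmomatic 0.36 for trimming, STAR 2.6.1b for alignment to mm10, Picard 2.17.1 for duplicates and HTSeq 0.11.1 for counting reverse-stranded pairs at a mapping quality of at least 10. The deposited values are RPKM plus a constant of 2, and how this normalization was done is not given in the sources used here. Between 3.13 and 8.78% of the values of a sample lie under the constant, so values were altered after normalization, and both GL261 tables lack 1 dimension of the variation between replicates, the last holding 0.209 and 0.175% of the residual variance. P-values from these tables may therefore be too small. Read depth is unknown.

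After subtraction of the constant, negative values were set to 0. Genes coding for proteins whose mean over the fitted samples reached 1 RPKM entered limma 3.58.1 (R 4.3.3, with trend) on log2(RPKM + 1), two-sided, with Benjamini-Hochberg adjustment and a threshold of 0.05. Vehicle and naïve samples were fitted alone, and the other groups of each table together. TMM factors were computed from the published formula with its default trims, as the count package planned for them was not used. The fit was tested on simulated data. Gene positions are those of GENCODE vM21, and 90.0% of rows matched by identifier. The named genes are the 7 members, at most 4 per pathway list and comparison by absolute change, and the 3 genes most like each member. A marker of microglia and a gene named by likeness are not reported here, and the marker was left out of the summed level. Members and lists were chosen with earlier results of these data known. Samples at 21 DPI are pools of 2 animals, and no source says that samples came from separate experiments, so p-values measure only the spread between these samples. Samples were grouped by their labels. Alternatives comprised other pseudocounts, filters and scalings, the compared groups alone, a replicate block, 1 residual degree of freedom fewer and each sample left out.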

Additional observations from a re-analysis of the deposited data

Results flagged for a closer look

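Csf2ra was flagged because the change with 7aaRAE against vehicle went opposite ways in both tumor models. The log2 difference was -0.147 in GL261 at 21 DPI, where all 7aaRAE samples lay below the vehicle mean, and 0.109 in U87-MG, where all lay above it. The difference between the models was not tested, as the tables were normalized separately, and neither change passed the threshold. In the groups of 4 samples at 28 DPI, vehicle and 7aaRGD, each of the 7 genes was checked for a sample far from the others, and 0 of these 14 checks found one. Groups of 3 samples were not checked.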

How the results depend on the processing

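The calls of the 7 genes held in most alternatives. Of 1296 alternative values, 1289 kept their side of the threshold, 4 fell short of it, 3 newly passed and 0 reversed a call, while 61 changed sign among values past the threshold in neither fit, none with a size above 0.298. In vehicle against naïve mice 6 genes were called in all 15 alternatives. With anti-PD-1 against vehicle, leaving out 1 sample gave 1 to 2 called genes. With the combination against anti-PD-1, 1 gene (Csf2ra) was called at an adjusted p under 0.1, against 0. At an adjusted p under 0.05, the counts over all genes moved more. For vehicle against naïve mice they were 7959 of 9597 genes tested, 5241 of 6193 with a mean of at least 5 RPKM and 9787 of 16402 without the filter, so that these counts followed the number of genes tested. For 7aaRGD they ran from 0 to 124 around 14 at 21 DPI, where 124 came without the third vehicle sample, and from 0 to 90 around 76 at 28 DPI. For the combination against anti-PD-1 they ran from 0 to 26 around 4, and for 7aaRAE in U87-MG from 0 to 31 around 1. Without the first sample of the combination, Csf2rb was not called (0.17). The cause of the other changes was not tested.

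Of the pairs of samples with the same replicate number, 1 of 9 at 21 DPI and 3 of 19 at 28 DPI correlated above 0.1. Pairs with different numbers were not compared. Values were altered after normalization and lack 1 dimension of the variation between replicates. These correlations therefore cannot tell whether the numbers paired the samples. With the replicate number as a block, the count over all genes was 0 for 7aaRGD against vehicle at both times, and no call of the 7 genes changed. No paired analysis was possible because the columns carry no replicate number in the U87-MG table. Leaving out the second 7aaRGD and 7aaRAE samples of that table, chosen after seeing the data, gave 0 called genes among the 6.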
